A study of Mus musculus with 63 samples.

Results

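The globins and erythroid genes followed here were the embryonic alpha-like globin *Hba-x*, the adult alpha-globins *Hba-a1* and *Hba-a2*, the embryonic beta-like globins *Hbb-y* and *Hbb-bh1*, and *Alas2*, *Ahsp*, *Slc4a1* and *Klf1*. They were chosen by name, for the globin switch and for the blood content of the tissues, and 8 of these 9 genes were found, in 9 of the 24990 rows of each gene table. *Ahsp* is not analysed here. *Hba-a1* and *Hba-a2* are near-identical copies and share 1 joint row beside 1 row each, so that only their sum, called adult alpha below, could be read as a level. The adult beta-globins, which are not among the 9, were followed as 2 joint rows (*Hbb-bs*/*Hbb-b1* and *Hbb-bt*/*Hbb-b2*), whose sum is called adult beta.

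The study deleted the promoter and first exon of *Chaserr*, a long noncoding RNA upstream of the chromatin remodeller gene *Chd2*, and asked what changes in mice and cells. RNA was sequenced in 47 libraries from whole embryos, adult brains, mouse embryonic fibroblasts (mEFs) and Neuro2a cells, a mouse neuroblastoma line, and open chromatin was mapped in mEFs with 12 ATAC-seq libraries. Total counts per library were 21589962 to 31293072 in embryos, 13956040 to 33192002 in brains, 9672637 to 16983416 in mEFs and 7621335 to 20050508 in Neuro2a cells.

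*Chaserr*+/- and WT embryos were taken at E9.5 and at E13.5, with 3 libraries per group, and adult brains of both genotypes also gave 3 libraries each. The mEFs, cells cultured from dissociated embryos of E13.5, were prepared without the head and without the liver, the main site of red cell formation at that age. Each mEF mutant had WT cultures of its own set, namely *Chaserr*+/- (3 and 3 libraries), *Chaserr*-/- (3 and 3), *Chd2*m/m, which carries a small frameshift deletion in the coding sequence (2 and 3), and *Chaserr*-/- *Chd2*m/m, called the double mutant (3 and 3). The labels place the WT cultures of the *Chaserr*+/- and *Chaserr*-/- sets in the same pregnancy as their mutants. They do the same for the WT cultures used for ATAC-seq. The titles of the double mutant cultures and of their WT cultures name different crosses, although the descriptions put them in 1 set. The mutant mice were founded on CB6F1 Ola HSD and backcrossed to C57BL/6 Ola HSD, and 2 *Chaserr* founder lines were used interchangeably, which the labels do not tell apart. Neuro2a lysates gave 2 input, 2 IgG and 2 CHD2 immunoprecipitation (RIP) libraries. The ATAC-seq libraries were 3 of *Chaserr*-/- mEFs, 3 of the double mutant and 3 of the WT cultures of each of these 2 sets. The *Chaserr*-/- mEFs were derived independently, and mEFs for ATAC-seq came from separate embryos. For the other libraries the sources used here do not say whether each is a separate animal, so p values there measure the spread between libraries, which may be technical. Counts of embryos, brains and cultures below are counts of libraries.

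The labels were checked first. *Chaserr* was listed at 0 TPM (a transcript level scaled to gene length and to the library) in all 3 *Chaserr*-/- cultures against 8.63 to 13.8 TPM in their WT cultures, and at 0 to 0.23 TPM in the double mutant against 80.0 to 93.7 TPM. In *Chaserr*+/- samples it lay below every WT library in E9.5 embryos (21.4 to 28.7 against 40.2 to 48.4 TPM), brains (14.1 to 23.5 against 30.0 to 36.0 TPM) and mEFs (10.4 to 15.8 against 18.4 to 22.2 TPM), and overlapped by 1 library in E13.5 embryos (29.9 to 42.5 against 42.1 to 64.6 TPM). In *Chd2*m/m cultures *Chd2* was at 7.76 and 8.19 TPM, above the 4.82 to 5.24 TPM of their WT cultures, and *Chaserr* at 16.3 and 13.47 TPM, below 17.8 to 19.0 TPM. These levels set the groups apart but do not show the small deletion itself. Summed over 10 neuron genes the level was 5354 to 6624 TPM in brains, and over 10 fibroblast genes 2210 to 7356 TPM in mEFs. These ranges overlap with those of other groups. The neuron sum was 5633 to 7530 TPM in Neuro2a IgG libraries and the fibroblast sum 2183 to 2892 TPM in E13.5 embryos. The Neuro2a libraries also held transcripts of adult brain, described with their globins below.

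Red cells of the mouse embryo come in successive waves. The first, primitive wave forms in the yolk sac and makes embryonic alpha- and beta-like chains together with adult alpha chains, and the later, definitive wave, which forms in the fetal liver, makes adult alpha and adult beta chains. The replacement of one set by the other is the globin switch, and circulating primitive cells persist while it takes place. *Alas2* makes the first step of haem synthesis in red cells, *Slc4a1* is the anion exchanger of the red cell membrane (band 3), and *Klf1* is a transcription factor that binds CACCC boxes of globin and other erythroid genes. Mature red cells of the adult have no nucleus but young ones keep globin RNA, so that blood left in a tissue carries adult globin transcripts.

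The promoters of an embryonic and an adult gene of each globin family are given so that embryonic and adult promoters can be read side by side. Each run covers 250 bases before to 50 bases after the start of transcription, 5′ to 3′ on the strand of the gene, from RefSeq on GRCm38.p6. They lie at chr11:32276350-32276649 (plus strand) for *Hba-x*, chr11:32283422-32283721 (plus) for *Hba-a1*, chr7:103853158-103853457 (minus) for *Hbb-y* and chr7:103827879-103828178 (minus) for *Hbb-bs*. Capitals mark matches, on either strand, to a GATA motif spelled GATAA, to the CACCC and CCAAT boxes and to the TATA box spelled TATAAA. No match overlapped another.
Hba-x: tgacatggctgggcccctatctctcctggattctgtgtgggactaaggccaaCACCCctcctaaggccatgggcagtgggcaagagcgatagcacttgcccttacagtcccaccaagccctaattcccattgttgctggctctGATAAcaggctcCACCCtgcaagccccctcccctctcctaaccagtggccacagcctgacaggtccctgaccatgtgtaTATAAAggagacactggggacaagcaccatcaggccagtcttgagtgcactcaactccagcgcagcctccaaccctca
Hba-a1: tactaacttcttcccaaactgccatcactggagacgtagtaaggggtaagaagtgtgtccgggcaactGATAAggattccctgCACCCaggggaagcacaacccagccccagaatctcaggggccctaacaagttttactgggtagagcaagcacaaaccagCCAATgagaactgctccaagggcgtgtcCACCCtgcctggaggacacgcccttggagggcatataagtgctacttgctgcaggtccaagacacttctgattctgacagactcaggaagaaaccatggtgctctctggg
Hbb-y: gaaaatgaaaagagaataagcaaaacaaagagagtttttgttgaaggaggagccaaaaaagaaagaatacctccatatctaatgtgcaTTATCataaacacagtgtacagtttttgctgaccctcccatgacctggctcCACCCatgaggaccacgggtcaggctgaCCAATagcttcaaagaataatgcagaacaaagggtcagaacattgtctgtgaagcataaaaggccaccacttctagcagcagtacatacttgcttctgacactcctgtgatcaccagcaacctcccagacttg
Hbb-bs: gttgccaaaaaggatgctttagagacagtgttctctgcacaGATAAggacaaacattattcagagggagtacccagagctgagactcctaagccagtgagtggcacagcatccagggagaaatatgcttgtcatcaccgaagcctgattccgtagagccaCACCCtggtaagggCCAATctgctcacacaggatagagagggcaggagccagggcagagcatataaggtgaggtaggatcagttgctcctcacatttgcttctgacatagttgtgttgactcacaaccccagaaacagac

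RefSeq entries were found for 6 of the genes (*Hba-x*, *Hba-a1*, *Hba-a2*, *Hbb-y*, *Alas2* and *Klf1*) and for *Hbb-bs* and *Hbb-bt*. Each of these 8 promoters held GATAA exactly once, where 25.4% of all 32851 promoters of that length held it. CACCC was in all 8 (57.5% of all promoters), CCAAT in 6 of 8, the exceptions being *Hba-x* and *Alas2* (37.4% of all), and TATAAA in 3, namely *Hba-x*, *Hbb-bt* and *Alas2* (13.6% of all). These matches are descriptions of the letters and not binding sites. The promoters of *Hba-a1* and *Hba-a2* shared an identical run of 297 of 300 bases.

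In WT embryos the embryonic alpha-like *Hba-x* and beta-like *Hbb-bh1* were lower at E13.5 than at E9.5, adult alpha and adult beta were higher, and *Hbb-y*, *Alas2*, *Slc4a1* and *Klf1* did not pass the test. *Hba-x* stood at 5161, 5451 and 3000 TPM in the 3 E9.5 libraries and at 445, 624 and 758 TPM in the 3 E13.5 libraries. All E13.5 values lay below all E9.5 values, as in 39.4% of the 15761 rows tested, and the log2 fold change was -3.17 (SE 0.26, edgeR adjusted p = 2.46e-06). The fall of *Hbb-bh1* was larger, from 6422, 5996 and 3538 TPM to 93.7, 186 and 182 TPM (log2 fold change -5.38, SE 0.33, edgeR adjusted p = 3.32e-07). In bulk tissue, fewer cells of a type and less RNA per cell cannot be told apart.

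Adult alpha was already present at E9.5, at 4192, 4503 and 2276 TPM, close to the level of *Hba-x* in the same embryos. At E13.5 it reached 19200, 27590 and 17280 TPM, all above E9.5, as in 43.5% of rows, and its summed counts had a log2 fold change of 2.28 (SE 0.26, edgeR adjusted p = 2.91e-05). Its joint row alone gave 2.09 (SE 0.27). Adult beta rose far more, from 155, 77.0 and 52.7 TPM to 13650, 22770 and 10420 TPM, with log2 fold changes of 7.04 (SE 0.50) for *Hbb-bs*/*Hbb-b1* and 7.22 (SE 0.43) for *Hbb-bt*/*Hbb-b2*. Adult alpha and adult beta thus differed at E9.5, where there was 27.0 to 58.5 times as much adult alpha as adult beta per length, and were near each other at E13.5, where the ratio was 1.21 to 1.66.

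*Hbb-y*, the second embryonic beta-like globin, did not follow *Hbb-bh1*. It stood at 7948, 8078 and 4008 TPM at E9.5 and at 7084, 11520 and 13680 TPM at E13.5, with overlapping groups (log2 fold change 0.42, SE 0.29, edgeR adjusted p = 0.204). Under scaling to library totals without TMM, an adjustment of library sizes for composition, its log2 fold change was 0.75 and passed the test.

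As shares, *Hba-x* made up 54.8 to 56.9% of alpha-like globin TPM in WT embryos at E9.5 and 2.21 to 4.203% at E13.5. *Hbb-bh1* made up 42.4 to 46.6% of beta-like globin TPM at E9.5 and 0.45 to 0.75% at E13.5. *Hbb-y* made up 52.7 to 57.1% at E9.5 and 33.4 to 56.3% at E13.5, and adult beta 0.54 to 1.07% and then 42.9 to 66.1%. The shares at E9.5 were alike in all 6 libraries of both genotypes (*Hba-x* 54.8 to 56.9%), while the total varied, from 0.80% to 3.14% of all TPM in globins. Within E13.5 the embryos differed more in their make-up, with *Hbb-y* between 14.0% and 56.3% of the beta-like RNA.

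**Figure D1:**
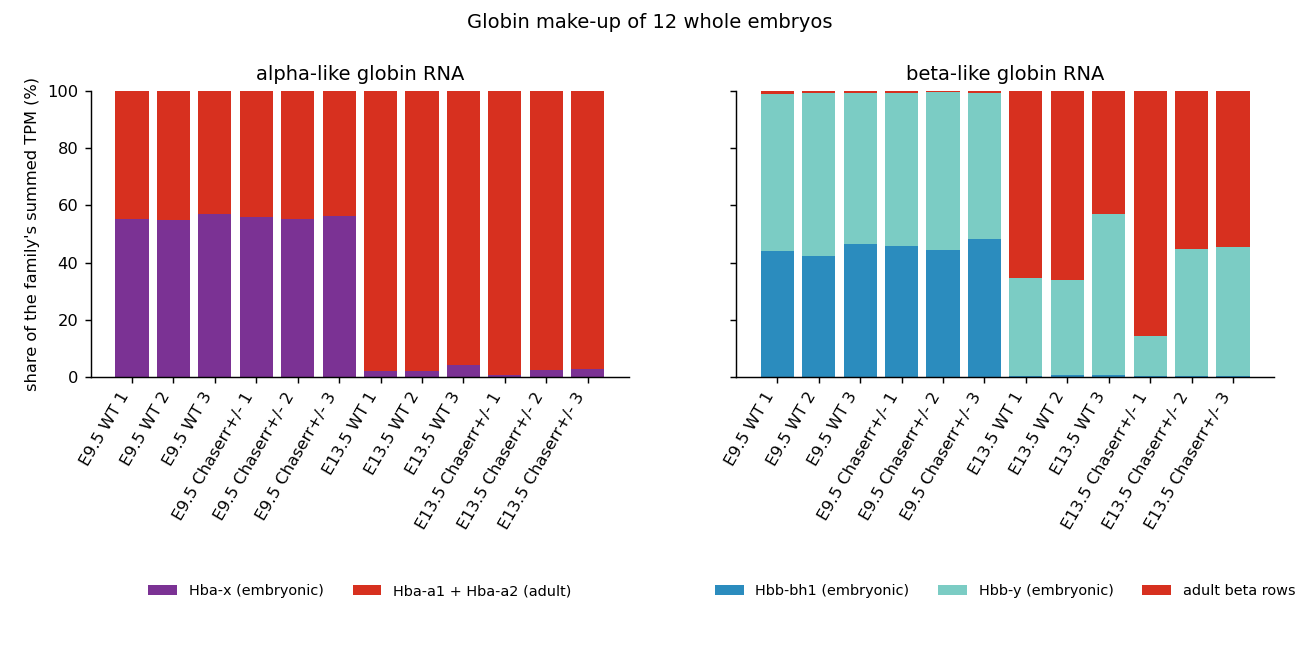
Share of each globin in the summed TPM of its family (y axis, %) in 12 libraries of whole embryos (x axis, 1 bar per library), alpha-like on the left and beta-like on the right. *Hba-x* and *Hbb-bh1* take 54.8 to 56.9% and 42.4 to 48.4% of the E9.5 bars and at most 4.203% and 0.75% of the E13.5 bars, where the adult genes and, among beta-like RNA, *Hbb-y* remain.

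The erythroid genes that are not globins gave no call between the stages. *Alas2* stood at 56.1, 57.1 and 29.2 TPM at E9.5 and at 59.5, 106 and 46.2 TPM at E13.5 (log2 fold change 0.31, SE 0.32). *Slc4a1* stood at 58.5, 56.0 and 31.1 TPM and then at 39.6, 107 and 29.0 TPM (0.017, SE 0.44). *Klf1* was the lowest of the 3, at 10.1, 10.2 and 6.21 TPM and then at 7.60, 18.9 and 3.07 TPM (-0.096, SE 0.52). For all 3 the groups overlapped and WT replicate 2 was the highest E13.5 library. Without it *Slc4a1* and *Klf1* were called lower at E13.5, with log2 fold changes of -0.76 and -0.99 (edgeR adjusted p = 0.019 and 0.0294), while *Alas2* stood at -0.11 and was still not called. The same library had the highest summed level of 10 fetal hepatocyte genes among the WT embryos of E13.5 (1682 TPM, against 811 and 402 TPM), led by *Afp* at 550 TPM. The part of liver tissue in these values was not tested.

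Of the 9 rows, 5 were called between the stages, 3 higher (the adult alpha rows) and 2 lower, where 80.4% of the 15761 rows tested were called, 42.1% higher and 38.3% lower. The same 5 had an unadjusted p under 0.05, as had 81.4% of all rows. The median log2 fold change of the 9 rows was 0.31, against 0.057 over all rows. DESeq2 also called 5 of the 9, but its share over all rows is not given here.

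Other genes of the red cell moved in both directions. The share called was below the 80.4% of all rows in each of the 5 lists of such genes that follow, so the counts say nothing particular about these lists. Of 10 genes of haem synthesis 3 rose and 2 fell between E9.5 and E13.5, among them *Ppox*, the oxidase before the last step (0.55), and *Cpox*, which acts just before it (-1.04). Of 20 genes of the red cell membrane 7 rose and 4 fell. *Add2*, which caps actin at the spectrin network, rose by 2.82, from 19.4 to 137 mean CPM (counts scaled to the library), and *Sptb*, the beta-spectrin of red cells, fell by 1.02. *Add2* is also made by neurons, and all 10 neuron genes rose between the stages. Of 14 erythroid transcription factors 8 rose and 2 fell. *Bcl11a*, a repressor of embryonic globin genes in definitive red cells that is also made by neurons, went from 1.21 to 75.5 mean CPM (log2 fold change 5.98, SE 0.16, edgeR adjusted p = 4.73e-09), *Sox6*, which acts with it, rose by 0.43, and *Zfpm1*, the cofactor of GATA1, fell by 0.75.

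Of 10 genes of iron handling and receptors 3 rose and 3 fell, with the transferrin receptor *Tfrc* falling by 1.75, from 333 to 98.8 mean CPM, and *Hmox1*, which degrades haem, rising by 0.70. Of 12 other red cell proteins 5 rose and 1 (*Cat*, catalase) fell. *Car1*, the carbonic anhydrase of definitive red cells, was among those that rose, from 0.014 to 0.56 mean CPM. Among markers of other cells, whose counts are likewise set against 80.4% of all rows called and 42.1% called higher, all 17 macrophage genes, all 7 tested of 10 granulocyte genes and 7 of 9 tested of 10 megakaryocyte genes rose. The summed macrophage level was 11.1 to 12.98 TPM at E9.5 and 379 to 416 TPM at E13.5, with *Tyrobp* and *C1qb* the most abundant at E13.5. The summed granulocyte level was 1.75 to 2.39 TPM and then 66.5 to 95.9 TPM. Of 10 fetal hepatocyte genes 7 rose and none fell, and of 10 yolk sac endoderm genes 2 rose and 3 fell, in a test of 9. The yolk sac endoderm genes that rose, *Ttr* and *Afp*, are in both lists. Of 10 endothelial genes 3 rose and 3 fell, and of 10 fibroblast genes 9 rose and 1 fell. Of these lists the macrophage, granulocyte and fibroblast genes exceeded the share of all rows called.

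In *Chaserr*+/- embryos at E9.5 no globin row was called, and the groups overlapped for *Hba-x* and adult alpha. *Hba-x* was at 3887, 6492 and 1860 TPM, against 5161, 5451 and 3000 TPM in WT (log2 fold change -0.13, SE 0.42). Adult alpha was at 3071, 5264 and 1449 TPM, against 4192, 4503 and 2276 TPM (-0.14, SE 0.44, summed counts). For both, *Chaserr*+/- replicate 2 was above and replicate 3 below all 3 WT embryos. *Klf1*, the lowest of the named genes, gave -0.25 (SE 0.35) and *Alas2* 0.0061 (SE 0.45).

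None of the 9 rows was called at E9.5, where 0% of 14500 rows were. At an unadjusted p under 0.05 there was 1, where 3.12% of all rows were, namely the row of *Hba-a2* alone (log2 fold change -2.82, SE 0.94), which was at 0 TPM in 1 *Chaserr*+/- embryo and is uncertain because *Hba-a1* shares its reads. DESeq2 called none of the 9. No gene of the 6 lists of other red cell genes was called or had an unadjusted p under 0.05 in edgeR.

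In *Chaserr*+/- embryos at E13.5, 1 library stood apart. *Klf1* was at 61.3, 5.03 and 3.61 TPM, against 7.60, 18.9 and 3.07 TPM in WT. *Slc4a1* was at 329, 30.3 and 36.1 TPM, against 39.6, 107 and 29.0 TPM. Adult alpha was at 71200, 15850 and 25180 TPM, against 19200, 27590 and 17280 TPM. In each case *Chaserr*+/- replicate 1 was above all other embryos and the other 2 *Chaserr*+/- embryos lay within the WT range, except for adult alpha in replicate 2, which was just below it. Globins took 14.8% of all TPM in that library and 3.62 to 6.27% in the other 5 embryos of E13.5. It also had 85.6% adult beta among its beta-like RNA, against 42.9 to 66.1% in the others, and the lowest share of *Hba-x* (0.80%).

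The same library had a summed fetal hepatocyte level of 5905 TPM, led by *Afp* at 2208 TPM, against 402 to 1682 TPM in the other 5 embryos. Its summed granulocyte level was 157 TPM, against 26.0 to 95.9 TPM, and its summed megakaryocyte level 274 TPM, against 155 to 191 TPM. Its 20 red cell membrane genes summed to 1087 TPM, against 287 to 488 TPM in the others. The median log2 fold change of those 20 genes over all libraries was 1.22, and none of them was called or had an unadjusted p under 0.05 in edgeR. Its summed macrophage level was 391 TPM, within the 373 to 416 TPM of the others. Other sums were lowest in this library, with 991 TPM for neuron genes, against 1204 to 1463 TPM in the others. They were 2183 against 2588 to 2892 TPM for fibroblast genes and 294 against 334 to 353 TPM for endothelial genes. The part of liver tissue in the result was not tested.

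With all 6 libraries the log2 fold change was 0.93 (SE 0.57, edgeR adjusted p = 0.742) for adult alpha, 1.41 (SE 1.17, adjusted p = 0.778) for *Klf1* and 1.33 (SE 1.02, adjusted p = 0.773) for *Slc4a1*. Without *Chaserr*+/- replicate 1 the joint adult alpha row stood at -0.095, *Klf1* at -1.21, *Slc4a1* at -0.84 and *Alas2* at -0.31, none of them called. *Hba-x* and *Hbb-y* varied less, at -0.070 (SE 0.24) and 0.094 (SE 0.26) with all libraries. The third embryonic globin, *Hbb-bh1*, was also highest in *Chaserr*+/- replicate 1. It was at 332, 97.7 and 158 TPM, against 93.7, 186 and 182 TPM in WT. Its log2 fold change was 0.45 with all libraries and ran from -0.30 to 0.80 as a library was left out, with no call. None of the 9 rows was called, where 0.0314% of 15946 were, and none had an unadjusted p under 0.05 in edgeR (6.34% of all rows). DESeq2 gave no value for *Slc4a1* and called none of the others.

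**Figure D2:**
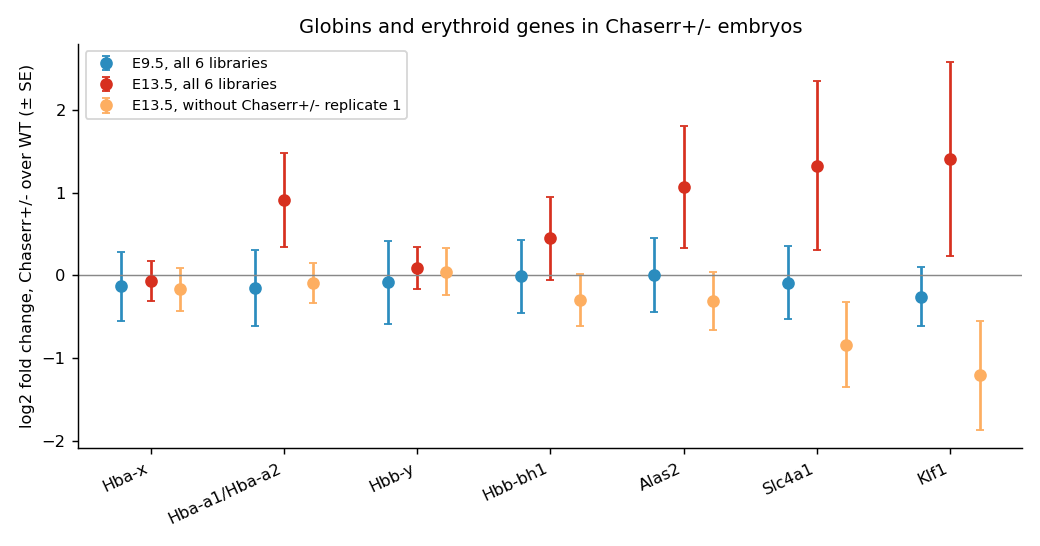
Log2 fold change of *Chaserr*+/- over WT (y axis, with its SE as bars) for 7 rows of the named genes (x axis) at E9.5, at E13.5 and at E13.5 without *Chaserr*+/- replicate 1. At E9.5 the points lie between -0.25 and 0.0061, and at E13.5 those of *Alas2*, *Slc4a1*, *Klf1* and adult alpha lie above 0 with the library and below 0 without it.

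Whether the genotype difference itself changed with stage was tested as an interaction. None of the 9 rows was called, where 0.0124% of 16173 rows were, and DESeq2 called none. The term was 1.06 (SE 0.82, edgeR adjusted p = 0.964) for adult alpha, and that of its joint row fell from 1.06 to 0.067 without *Chaserr*+/- replicate 1 of E13.5. The row of *Hba-a2* alone was the 1 of the 9 with an unadjusted p under 0.05 (3.86, SE 1.13), where 3.97% of all rows had one, with the same uncertainty as above.

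Adult brains carried adult globins and next to no embryonic ones. Adult alpha was at 999, 2145 and 952 TPM in WT and at 1118, 1302 and 1951 TPM in *Chaserr*+/- brains. Adult beta was at 1327, 3413 and 1281 TPM and at 1387, 905 and 2418 TPM. Globins took 0.22 to 0.56% of all TPM, and the groups overlapped. *Hba-x* and *Hbb-bh1* were at 0 TPM in all 6 libraries and *Hbb-y* at 0 to 0.88 TPM.

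*Alas2* was at 2.95 to 11.9 TPM in brains, *Slc4a1* at 0.10 to 0.35 TPM and *Klf1* at 0.14 to 0.66 TPM. *Alas2* was highest in WT replicate 2, which was also highest in adult alpha and adult beta. Adult alpha to adult beta was 0.63 to 1.44, and in 5 of the 6 brains it was below that of every embryo. Of the 2 adult beta rows *Hbb-bs*/*Hbb-b1* was the larger, by 6.16 to 20.2 times in brains and by 1.35 to 3.84 times in embryos. In the 2 brain libraries made with the TruSeq kit, which was also that of all embryos, it was 6.33 and 6.16 times, and in the 4 made with the SENSE kit 11.9 to 20.2 times. These are rows of near-identical genes, and the source of the difference was not tested.

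In the comparison of genotypes 3 of the 9 rows passed the filter on low counts in brains and none was called, where 0% of 14911 rows were. None had an unadjusted p under 0.05, where 2.47% of all rows had one, and DESeq2 called none. Adult alpha had a log2 fold change of 0.049 (SE 0.39, summed counts), and *Alas2* one of -0.061 (SE 0.60). As a library was left out, *Alas2* ran from -0.41 to 0.75 and the joint adult alpha row (0.15 with all) from -0.099 to 0.70, with no call. Both were highest without WT replicate 2. In simulated brain data 49.5% of genes changed by 1.5 on the log2 scale were recovered, so changes of that size could be missed.

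Adult alpha in mEFs differed widely between cultures of different sets that were all WT. Adult alpha was at 3.90, 2.47 and 6.88 TPM in the WT cultures of the *Chaserr*+/- set and at 54.5, 19.3 and 49.2 TPM in those of the *Chd2*m/m set. It was at 142, 595 and 48.9 TPM in those of the double mutant set and at 375, 887 and 397 TPM in those of the *Chaserr*-/- set. The medians of the lowest and the highest set differed 102-fold. In this order only the double mutant set overlapped with its neighbours, the *Chd2*m/m and the *Chaserr*-/- set.

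The embryonic genes fell into a lower and a higher pair of sets. *Hba-x* was at 0.96 to 1.53, 0.59 to 1.23, 3.95 to 6.24 and 7.53 to 19.1 TPM in the 4 sets in the same order, and *Hbb-y* at 0.98 to 2.20, 1.18 to 1.89, 9.32 to 14.8 and 9.77 to 13.52 TPM. *Hbb-bh1* was at most 0.86 TPM and *Klf1* at most 0.40 TPM in any WT culture. *Alas2* was listed at 0 TPM in all 6 libraries of the *Chaserr*+/- set, where a count of 0 allows up to 3 counts per library, and reached 1.24 TPM in WT cultures of the *Chaserr*-/- set and 2.23 TPM in those of the double mutant set. All 6 rows that could be tested differed between the 4 sets, where 88.1% of 14437 rows did, and 88.8% had an unadjusted p under 0.05 (adult alpha, edgeR adjusted p = 2.35e-05). Set, pregnancy, cross and batch of library preparation cannot be told apart, while the kit was the same for all mEF libraries.

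Other blood cell genes differed between the sets as well, as did 88.1% of all rows. All 17 macrophage and all 9 tested granulocyte genes were called, but so were all 10 neuron and all 10 fibroblast genes. The summed granulocyte level was 1.12 to 2.87, 1.47 to 20.1, 6.01 to 218 and 90.8 to 193 TPM in the same order, with *S100a9* or *S100a8* the most abundant gene in each library. The summed macrophage level was 320 to 430, 545 to 808, 923 to 1034 and 1351 to 1608 TPM. That of the fibroblast genes was 5434 to 7356, 2210 to 2542, 3705 to 4596 and 5652 to 5676 TPM. The summed level of 20 red cell membrane genes, several of which other cells also make, was 73.9 to 115 TPM in all 12 WT cultures.

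**Figure D3:**
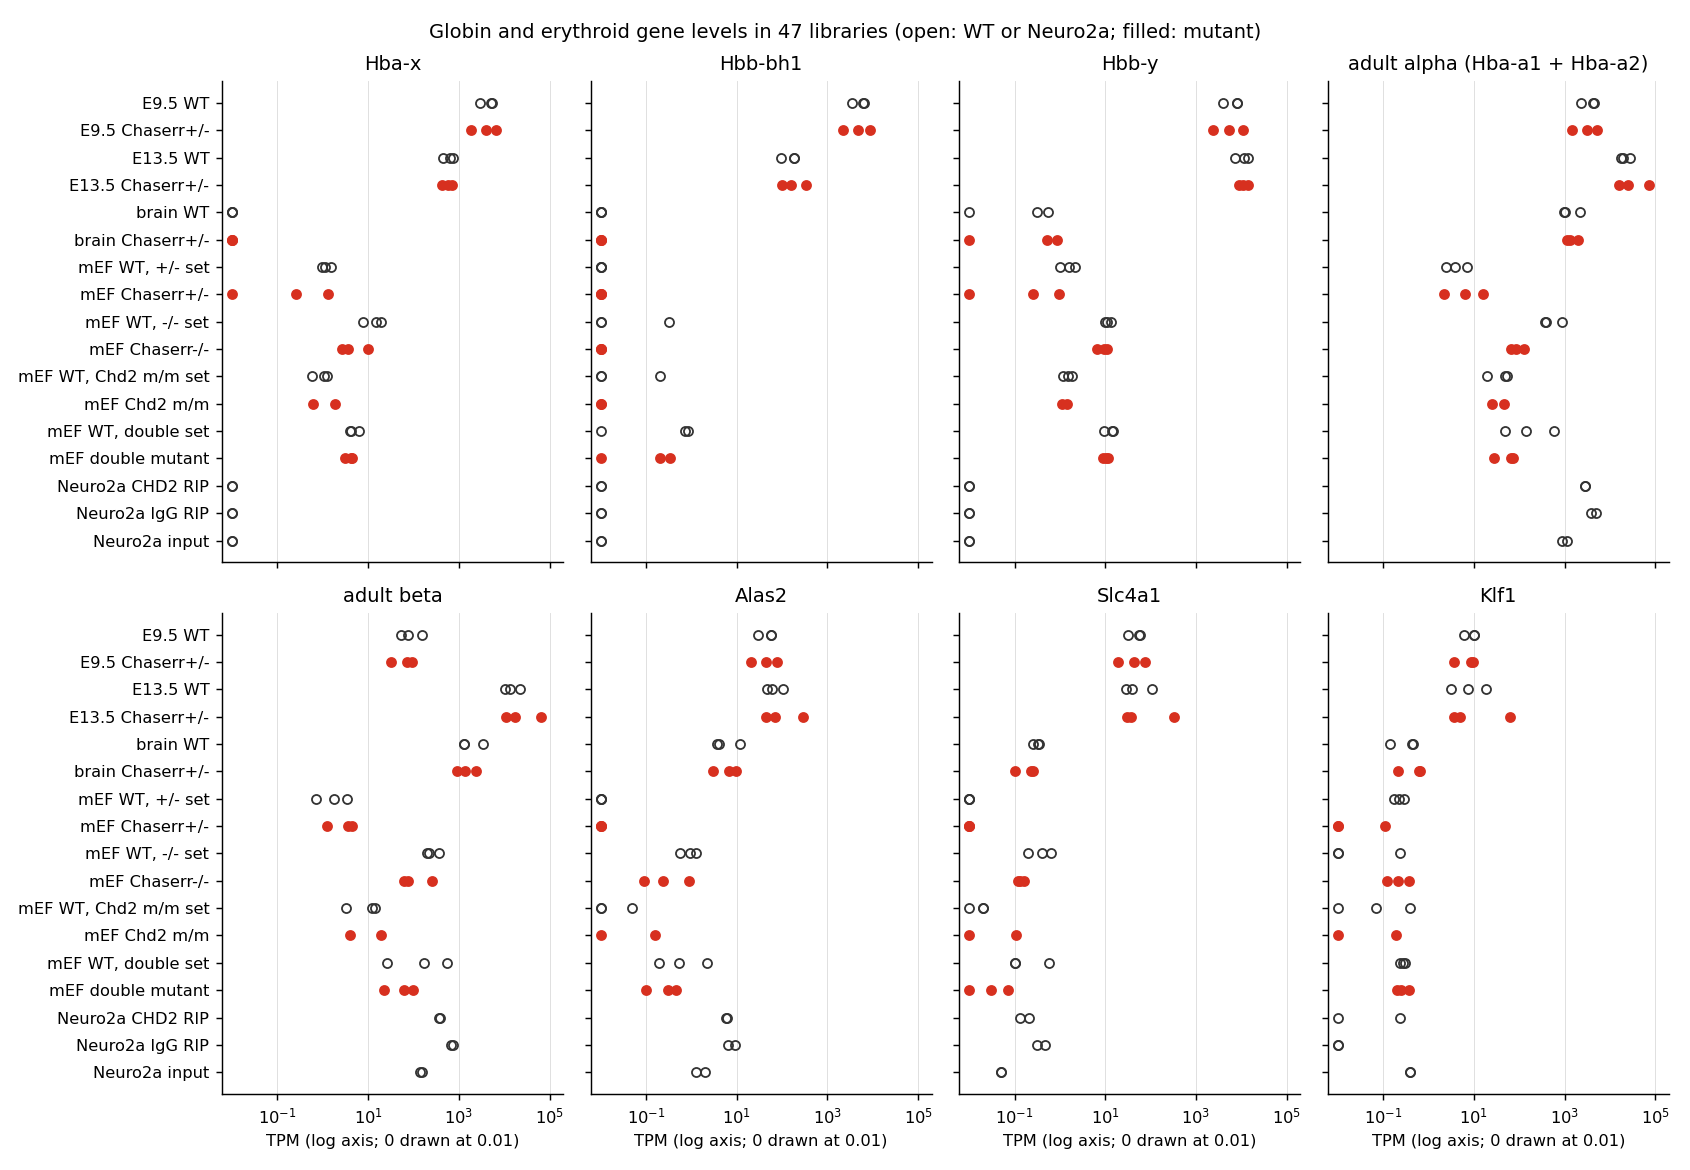
Level of 8 genes or summed genes in each of 47 libraries (x axis, TPM on a log axis with 0 drawn at 0.01) by group (y axis). Open points are WT or Neuro2a libraries and filled points mutants. *Hba-x* and *Hbb-bh1* are highest at E9.5, adult alpha and adult beta at E13.5, and adult alpha in WT mEFs runs from 2.47 to 887 TPM.

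In *Chaserr*-/- mEFs adult alpha was lower than in their WT cultures. It was at 130, 86.8 and 66.6 TPM, against 375, 887 and 397 TPM. All mutant cultures lay below all WT cultures, as in 21.4% of rows tested. The summed counts had a log2 fold change of -2.63 (SE 0.34, edgeR adjusted p = 0.0237). Of its rows that of *Hba-a1* alone was called (-2.75, SE 0.28, adjusted p = 0.0064) and the joint row was not (-2.55, SE 0.40, adjusted p = 0.0522). Set against the WT cultures of both pregnancies, those of the *Chaserr*+/- set included, the row of *Hba-a1* stood at -1.74 and was not called (adjusted p = 0.518).

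The embryonic globins gave no call in edgeR, while DESeq2 called *Hba-x* lower (-1.39, DESeq2 adjusted p = 0.0478). *Hba-x* was at 2.66, 9.99 and 3.69 TPM, against 15.0, 19.1 and 7.53 TPM, so that 1 mutant culture lay within the WT range (-1.38, SE 0.50, edgeR adjusted p = 0.0901). *Hbb-y* was at 6.57, 11.1 and 9.22 TPM, against 13.52, 10.9 and 9.77 TPM (-0.43, SE 0.30, adjusted p = 0.332). Adult beta was at 261, 77.2 and 60.4 TPM, against 196, 367 and 224 TPM, and *Chaserr*-/- replicate 1 lay within the WT range. The log2 fold change of *Hbb-bs*/*Hbb-b1* was -1.10 (SE 0.44, adjusted p = 0.115). Calls depended on single libraries, since without *Chaserr*-/- replicate 1 both adult beta rows were called lower (-1.96 for *Hbb-bs*/*Hbb-b1* and -2.18 for *Hbb-bt*/*Hbb-b2*) and without replicate 2 *Hba-x* was (-2.19). *Alas2*, at 0.89, 0.24 and 0.09 TPM against 0.55, 1.24 and 0.95 TPM, did not pass the filter on low counts.

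Of the 4 rows tested 1 was called, lower, where 0.118% of 13580 rows were called and 0.0957% called lower. At an unadjusted p under 0.05 there were 3 of 4, where 33.9% of all rows were. DESeq2 called 3 of 4, where it called 19.0% of all rows. The median log2 fold change of the 4 rows was -1.96, against -0.022 over all rows. The filter on low counts passes a row through the group where it is high.

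Of markers of other blood cells 1 of 7 tested granulocyte genes and 2 of 17 macrophage genes were called lower in these cultures. The summed granulocyte level was 93.7, 39.4 and 33.9 TPM, against 115, 90.8 and 193 TPM, with 1 mutant culture just above the lowest WT culture, and *S100a9* was its most abundant gene in each. The granulocyte gene called was the peroxidase gene *Mpo* (-3.03, SE 0.38, edgeR adjusted p = 0.0197), and 6 of 7 had an unadjusted p under 0.05, where 33.9% of all rows had one. The neutrophil granule gene *Ngp* gave -2.36 (adjusted p = 0.0522). The summed macrophage level was 1040, 1051 and 1095 TPM, against 1608, 1351 and 1446 TPM, with no overlap. The macrophage genes called were the lysosomal *Cd68* (-1.26) and *Laptm5* (-0.94), and 9 of 17 had an unadjusted p under 0.05.

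Other summed levels were also lower in every mutant culture than in every WT culture. They were 4304 to 5209 against 5652 to 5676 TPM for 10 fibroblast genes, 117 to 144 against 160 to 169 TPM for 10 megakaryocyte genes, 5740 to 7242 against 8857 to 9066 TPM for 10 genes of iron handling and receptors and 191 to 247 against 252 to 307 TPM for 14 erythroid transcription factors. None of the genes of these 4 lists was called. An unadjusted p under 0.05 was found for 2 of 10, 0 of 5, 4 of 8 and 3 of 11 tested genes, where 33.9% of all rows had one. Only the genes of iron handling and receptors exceeded that share, so the counts say nothing particular about the other lists. None of 10 haem synthesis genes was called, with 1 at an unadjusted p under 0.05, and their summed levels overlapped. The part of other cells in the globin result was not tested.

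In the double mutant the levels pointed the same way but no row was called. Adult alpha was at 64.6, 73.3 and 27.8 TPM, against 142, 595 and 48.9 TPM in WT, with 2 mutant cultures above the lowest WT culture. Its log2 fold change was -2.21 (SE 0.71, edgeR adjusted p = 0.293). WT replicate 2, at 595 TPM, decided its size, and without it the joint row went from -2.05 to -0.59. Without WT replicate 3, the lowest WT culture, the joint row was called (adjusted p = 0.0374), as was that of *Hba-a1* (adjusted p = 0.0343). Adult beta was at 62.2, 95.4 and 22.6 TPM, against 171, 548 and 25.6 TPM, with 2 mutant cultures above the lowest WT culture here too. The log2 fold changes were -2.05 (SE 0.81, edgeR adjusted p = 0.421) for *Hbb-bs*/*Hbb-b1* and -1.66 (SE 0.78, adjusted p = 0.532) for *Hbb-bt*/*Hbb-b2*. They were -0.75 and -0.45 without WT replicate 2, and without WT replicate 3 both rows were called (-2.57 and -2.18, adjusted p = 0.0441 and 0.0373). *Hba-x* gave -0.28 (SE 0.35) and *Hbb-y* -0.32 (SE 0.26).

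Of the 4 rows tested none was called, where 0.0924% of 14076 rows were. At an unadjusted p under 0.05 there were 2, where 9.89% of all rows were, and DESeq2 called none. WT replicate 2 also had the highest summed granulocyte level, 218 TPM against 50.4 and 6.01 TPM in the other WT cultures and 5.29 to 28.8 TPM in the double mutant. The summed macrophage level was 588 to 857 TPM in the double mutant and 923 to 1034 TPM in WT, with no overlap, and 1 of 17 macrophage genes was called lower, the mannose receptor *Mrc1* (-1.03, SE 0.14, edgeR adjusted p = 0.0339). The summed levels of 10 fetal hepatocyte genes (18.9 to 64.0 against 72.0 to 97.0 TPM) and 10 yolk sac endoderm genes (14.4 to 47.2 against 52.9 to 73.2 TPM) did not overlap either, and 4 of 7 and 2 of 6 tested genes had an unadjusted p under 0.05, with none called. These lists share genes, among them *Afp*, the most abundant gene of both sums in each of these libraries. Of 10 fibroblast genes 9 had one and none was called, with a median log2 fold change of -0.51 and overlapping sums (3115 to 3749 against 3705 to 4596 TPM). The part of these cells in the globin values was not tested.

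The change in *Chaserr*-/- cultures and that in the double mutant were then set against each other, each relative to its own WT cultures. The difference was -0.41 for adult alpha (SE 0.92, edgeR adjusted p = 0.802) and -1.10 for *Hba-x* (SE 0.66, adjusted p = 0.300). As a library was left out, the joint adult alpha row (-0.49 with all) ran from -1.96 to 0.031 and *Hba-x* from -1.92 to -0.77, with no call. None of 6 rows was called, where 0.112% of 14273 rows were, none had an unadjusted p under 0.05 (26.2% of all rows) and DESeq2 called none. A difference between them was thus not detected with these libraries, and these values do not show that the changes were equal.

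*Chaserr*+/- and *Chd2*m/m mEFs gave no call. In *Chaserr*+/- cultures adult alpha was at 15.5, 6.35 and 2.15 TPM, against 3.90, 2.47 and 6.88 TPM (0.88, SE 0.59, edgeR adjusted p = 0.740). All globins together had 17 to 73 counts per library there, so that 1 of the 9 rows, the joint adult alpha row, passed the filter, and it was not called, where 0.173% of 13282 rows were. Of adult beta *Hbb-bs*/*Hbb-b1* passed too, at 4.31, 3.66 and 1.23 TPM against 0.72, 1.07 and 2.56 TPM, with overlapping groups and no call (1.05, SE 0.56, adjusted p = 0.656). In *Chd2*m/m cultures adult alpha was at 24.99 and 47.1 TPM, against 54.5, 19.3 and 49.2 TPM, with overlapping groups (-0.15, SE 0.35, adjusted p = 0.968). Of 2 rows tested none was called, where 0.0145% of 13777 rows were. In neither comparison did a member have an unadjusted p under 0.05, where 8.36% and 4.51% of all rows had one, or a call in DESeq2.

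**Figure D4:**
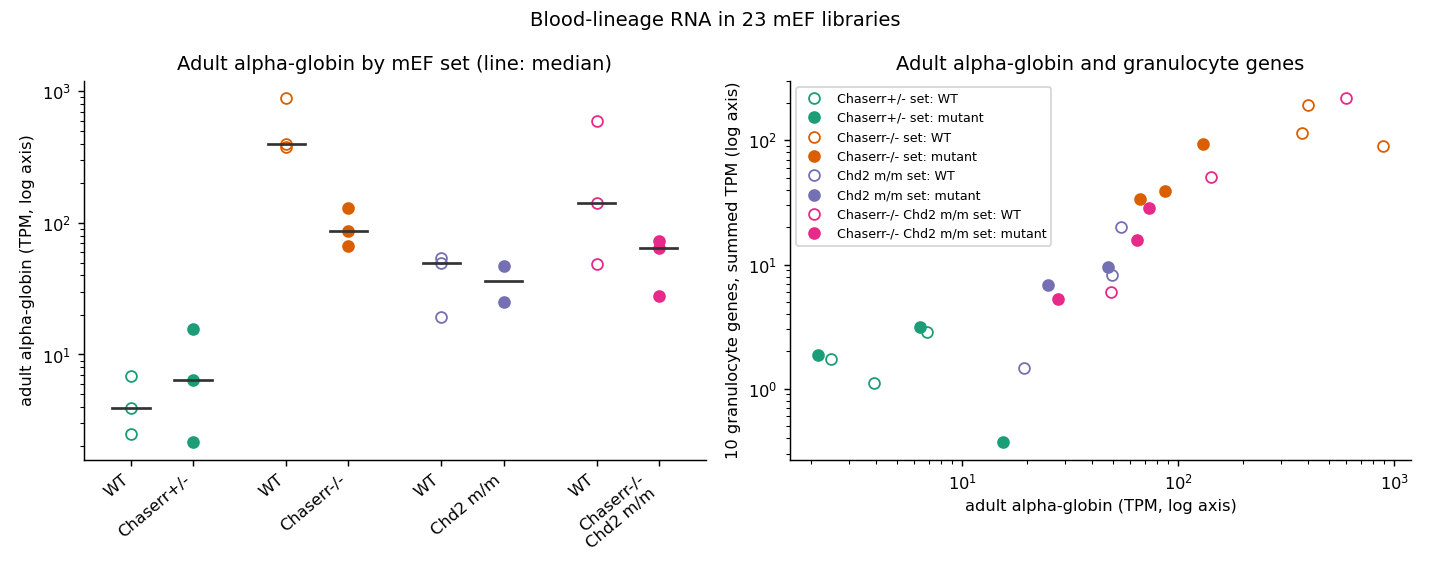
Adult alpha in 23 mEF libraries. On the left, TPM on a log axis (y) by group (x), with 1 point per library and a line at the median. On the right, the summed TPM of 10 granulocyte genes (y, log axis) against adult alpha (x, log axis). *Chaserr*-/- cultures lie at 66.6 to 130 TPM, all below their WT cultures at 375 to 887 TPM, and the other groups overlap with theirs.

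Across the 23 mEF libraries, the rows most like adult alpha were sought by the Pearson correlation of log2 CPM deviations from the group mean, among 13351 rows. The adult beta rows had a correlation of 0.922 (*Hbb-bs*/*Hbb-b1*) and 0.787 (*Hbb-bt*/*Hbb-b2*). The granulocyte genes *Ngp*, *S100a8*, *S100a9* and *Mpo* were at 0.782, 0.772, 0.73 and 0.717. The platelet genes *Pf4* and *Ppbp* were at 0.613 and 0.586. Outside the lists the highest 10 were *Gm16386*, *Vps37b*, *Rrs1*, *Pcbp1*, a joint row of *Gm14305*, *Mfsd2a*, *Zmynd19*, *Lmnb1*, *Ubqln1* and *Kcnab1*, at 0.829 to 0.75. The points share libraries and depth, and the values are descriptions.

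Open chromatin gave another readout of the same genes in mEFs. None of the 8 genes had an ATAC-seq peak within 300 bases of an annotated coding start in any of the 12 libraries, and neither adult beta gene had one, where 34.8 to 63.0% of 22232 coding genes did. *Actb* and *Gapdh* had one in 12 of 12 libraries, and the collagen genes *Col1a1* and *Col1a2* in 11 of 12. Within 1000 bases only *Klf1* had a peak, in 9 of 12 libraries, where 37.2 to 65.9% of coding genes did. It lay at chr8:87426532-87427487 (mm9), 705 to 997 bases from the start, over exon 2 (chr8:87426588-87427401), with a fold enrichment of 11.6 to 14.0 and a -log10 q of 29.4 to 53.1, and a peak touched that exon in all 12 libraries. A missing peak does not show that no cell had open chromatin there.

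The Neuro2a libraries held adult globin RNA. Adult alpha was at 1158 and 855 TPM in the 2 inputs, at 4976 and 3734 TPM in the 2 IgG libraries and at 2848 and 2843 TPM in the 2 CHD2 libraries. It was thus higher in both IgG libraries than in both CHD2 libraries. *Hba-x*, *Hbb-y* and *Hbb-bh1* were at 0 TPM in all 6. The ratio of adult alpha to adult beta was 5.58 to 7.67, above the 0.63 to 1.44 of the brains. The same libraries held *Camk2a*, a kinase of forebrain neurons, at 524 to 3390 TPM and *Ttr* at 1376 to 9643 TPM, and in both the order of the IgG, CHD2 and input libraries was that of adult alpha. The source of the globin RNA was not tested.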

How the data were processed

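RNA-seq libraries were made with the TruSeq kit (embryos and brain replicate 3 of both groups), Lexogen SENSE (other brains, mEFs) or, for Neuro2a RIP, a Lexogen SENSE total RNA kit after RiboCop depletion of ribosomal RNA. The authors quantified each library with RSEM (version not given in the sources used here) and deposited an expected count per gene, beside TPM and FPKM. None of these was scaled across libraries. Deposited ATAC-seq peaks were called by the authors with MACS2 in each library (mm9), with a score, a fold enrichment and the -log10 of p and q.

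Symbols came from a RefSeq table (GRCm38.p6, names and promoters only), which matched 23879 of 24990 rows, and gene starts on mm9 from GENCODE vM1. Expected counts were rounded and tested with edgeR 4.0.16 in R 4.3.3 (filterByExpr, TMM, quasi-likelihood test, Benjamini-Hochberg over all tested rows, called at an adjusted p under 0.05), each mutant against the WT libraries of its own set. DESeq2 1.42.0 was an alternative. Levels are TPM as deposited. In data simulated with these depths, 93 to 98.5% of genes changed by 1.5 on the log2 scale were recovered in the single comparisons other than brain (49.5%), and 88 and 89.5% in the 2 differences between effects. Other alternatives were library totals without TMM, other filters on low counts, globin rows left out of the scaling, summed adult alpha rows, each library left out in turn, a replicate block, library kit and other choices of control libraries. Replicate numbers were treated as pairs in the brains (correlations of deviations 0.554, 0.579 and 0.799) and did not pair any other set. In brains the best match of replicate 1 was replicate 2, and replicate 3 of both groups was made with the other kit. Pairing and kit therefore cannot be told apart there. Named were the 9 genes, from each list at most 3 called genes in either direction, by size, and the 10 rows most like adult alpha. Other genes were named outside this rule, after their values were seen. They were *Sox6*, *Ngp* in mEFs, the most abundant genes of marker lists (*Afp*, *Tyrobp*, *C1qb*, *S100a8*, *S100a9*), list genes like adult alpha in mEFs (among them *Mpo*, *Pf4* and *Ppbp*) and transcripts of brain and of the sympathetic lineage in Neuro2a libraries. *Actb*, *Gapdh*, *Col1a1* and *Col1a2* served as controls for peaks. Members and lists were chosen with earlier results of these data known. Values of some genes are not reported here.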

Additional observations from a re-analysis of the deposited data

How the results depend on the processing

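Of 96 results, 1377 values were computed under alternatives, of which 1252 kept their direction and their side of the threshold, 95 changed sign, 1 lost and 18 gained a call, and 11 counts moved by more than 1.5 times. The globin switch kept the direction and the call of *Hba-x*, *Hbb-bh1* and all adult rows under every alternative run. With the adult alpha rows summed, 3 of 7 rows were called between the stages in place of 5 of 9, since there were fewer rows.

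In *Chaserr*-/- mEFs, where 1 row was called, 3 were with DESeq2, 2 with library totals without TMM, 2 with no filter on low counts, 2 with at least 10 counts in every library and 0 against WT of both pregnancies, and 1 to 3 with a library left out. In the double mutant, where none was, 1 was with a replicate block and 0 to 2 with a library left out. The replicate numbers do not pair that set, and the calls gained under the block (*Hba-a1* alone, -2.20, adjusted p = 0.0112, and *Hbb-bs*/*Hbb-b1*, which is not among the 9, -1.67, adjusted p = 0.0294) are given as such. For brains, whose pairing cannot be told apart from the library kit, the block changed no call. No paired analysis was possible because *Chaserr*-/- mEFs and their WT cultures share no replicate number, and for the WT sets because those of *Chaserr*-/- share no number with the others. Within 1000 in place of 300 bases, 1 gene had a peak (*Klf1*) in place of 0. The level of adult alpha at E13.5 over that at E9.5 was 4.58 in TPM and 4.83 in FPKM. With at least 10 counts in every library none of the named genes was left to test in *Chaserr*+/- mEFs or between WT sets, nor without *Chaserr*+/- mEF replicate 1.

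These values changed sign under another setting, and none was called in the edgeR test as described above. Between WT stages *Slc4a1* (0.017) stood at -0.0085 with DESeq2, -0.0034 without a filter and -0.15 with a replicate block, and *Klf1* (-0.096) at 0.24 without TMM, 1.55 in *Chaserr*+/- embryos and 0.73 in all 12 embryos. *Alas2* stood at -0.10 in *Chaserr*+/- embryos of E9.5 with the replicate block, and in brains at 0.014 without TMM, 0.13 with the replicate block and 0.0047 with library kit as covariate. In brains *Hba-a1* alone stood at 0.0504 with the replicate block and the joint row at -0.25 in Lexogen libraries. In *Chaserr*-/- mEFs against WT of both pregnancies *Hbb-y* stood at 0.41 and *Hbb-bt*/*Hbb-b2* at 0.096, and in *Chd2*m/m mEFs *Hbb-bt*/*Hbb-b2* at -0.16 with the replicate block. The cause was not tested.

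Leaving out 1 library changed the sign of these log2 fold changes, none of them called with all libraries, given with the lowest and highest value. They were between WT embryos of E13.5 and E9.5, *Alas2* (-0.11 to 0.54), *Klf1* (-0.99 to 0.33), *Slc4a1* (-0.76 to 0.34). In *Chaserr*+/- embryos of E9.5 they were joint adult alpha (-0.69 to 0.21), *Alas2* (-0.54 to 0.36), *Hba-x* (-0.63 to 0.21), *Hbb-bh1* (-0.59 to 0.35), *Hbb-y* (-0.75 to 0.30), *Klf1* (-0.49 to 0.062), *Slc4a1* (-0.60 to 0.28), *Hba-a1* alone (-0.36 to 0.50), *Hbb-bs*/*Hbb-b1* (-0.79 to 0.12). In *Chaserr*+/- embryos of E13.5 they were joint adult alpha (-0.095 to 1.30), *Alas2* (-0.30 to 1.51), *Hba-x* (-0.25 to 0.13), *Hbb-bh1* (-0.30 to 0.80), *Hbb-y* (-0.13 to 0.30), *Klf1* (-1.21 to 2.32), *Slc4a1* (-0.84 to 2.12), *Hba-a1* alone (-0.13 to 1.31), *Hbb-bs*/*Hbb-b1* (-0.15 to 1.56), *Hbb-bt*/*Hbb-b2* (-0.26 to 1.54). In *Chaserr*+/- brains they were joint adult alpha (-0.099 to 0.70), *Alas2* (-0.41 to 0.75), *Hba-a1* alone (-0.50 to 0.51), *Hbb-bs*/*Hbb-b1* (-0.77 to 0.28), *Hbb-bt*/*Hbb-b2* (-1.10 to 0.29). In *Chd2*m/m mEFs they were *Hba-a1* alone (-0.57 to 0.67), *Hbb-bs*/*Hbb-b1* (-1.10 to 0.93), *Hbb-bt*/*Hbb-b2* (-2.08 to 1.12). For stage by genotype they were *Alas2* (-0.30 to 1.60), *Hba-x* (-0.29 to 0.55), *Hbb-bh1* (-0.28 to 1.03), *Hbb-y* (-0.22 to 0.83), *Klf1* (-0.94 to 2.56), *Slc4a1* (-0.74 to 2.20), *Hba-a1* alone (-0.30 to 1.26). For the difference between the *Chaserr*-/- and double mutant effects they were joint adult alpha (-1.96 to 0.031), *Alas2* (-0.98 to 0.90), *Hbb-y* (-0.30 to 0.087), *Slc4a1* (-0.30 to 1.98), *Hba-a1* alone (-1.67 to 0.17), *Hbb-bs*/*Hbb-b1* (-0.34 to 1.5), *Hbb-bt*/*Hbb-b2* (-0.52 to 1.29).

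The number of all rows called also moved. It was 16 in *Chaserr*-/- mEFs, against 2582 with DESeq2, 1111 without TMM, 1407 without a filter, 1383 with at least 10 counts, 3 with WT of both pregnancies and 2 to 2827 with a library left out. For *Chaserr*+/- embryos of E9.5 it was 0, with 0 to 6 as a library was left out, and 5 with DESeq2, 1 without a filter. For *Chaserr*+/- embryos of E13.5 it was 5, with 1 to 12 as a library was left out, and 21 with DESeq2, 1 with the replicate block. For brains it was 0, with 0 to 0 as a library was left out, and 1 with DESeq2. For *Chaserr*+/- mEFs it was 23, with 3 to 54 as a library was left out, and 99 with DESeq2, 68 without a filter, 74 with the replicate block. For *Chd2*m/m mEFs it was 2, with 0 to 8 as a library was left out, and 8 with DESeq2, 6 without a filter, 1 with at least 10 counts, 99 with the replicate block. For the double mutant it was 13, with 3 to 201 as a library was left out, and 222 with DESeq2, 103 without a filter, 75 with the replicate block. For stage by genotype it was 2, with 1 to 4 as a library was left out, and 8 with DESeq2, 1 with at least 10 counts, 1 with the replicate block. For the difference of effects it was 16, with 0 to 1764 as a library was left out, and 1510 with DESeq2, 226 without a filter, 26 with at least 10 counts, 10 with the replicate block. Globins in *Chaserr*+/- mEFs rest on 17 to 73 counts per library, which limits those values.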

Other observations

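The Neuro2a libraries, labelled as a neuroblastoma line, also held transcripts typical of adult brain. *Ttr*, the transthyretin of the choroid plexus, was at 1376 to 9643 TPM in the 6 libraries and at 1341 to 2954 TPM in the 6 brains. *Camk2a*, a kinase of forebrain neurons, was at 524 to 3390 TPM and *Slc17a7*, the vesicular glutamate transporter, at 166 to 1028 TPM. The microglial genes *C1qb* and *Tyrobp* were at 40.7 to 246 and 36.5 to 259 TPM. *Mbp* of myelin was at 404 to 2509 TPM, below the 3647 to 8974 TPM of the brains. *Phox2a* and *Hand2*, transcription factors of the sympathetic lineage, were at 15.4 to 382 and 21.4 to 265 TPM in the Neuro2a libraries and at 0 to 0.60 and 0 TPM in brains. Among the Neuro2a libraries IgG replicate 1 had the highest levels of *Ttr*, *Camk2a*, *Mbp* and adult alpha and the lowest of *Phox2a* and *Hand2*. *Mbp*, *Phox2a* and *Hand2* were chosen after their values were seen, and no source of these transcripts was tested.

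The level of *Alas2* per adult alpha was higher in embryos of E9.5 than in those of E13.5 or in brains, and the latter overlapped. Per 1000 TPM of adult alpha, *Alas2* was at 12.7 to 14.9 TPM in the 6 embryos of E9.5, at 2.68 to 4.04 TPM in the 6 of E13.5 and at 2.27 to 5.92 TPM in the brains. Adult alpha leaves out *Hba-x*, which made up 54.8 to 56.9% of alpha-like TPM in embryos of E9.5. In those of E13.5 *Hba-x* made up at most 4.203% and in brains 0%. The ratio thus also changes with the globin switch, and that to all alpha-like RNA is not given here.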
